A study of Sus scrofa with 8 samples.

Results

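Retinoid binding and receptor genes were followed in porcine induced pluripotent stem cells (piPSCs) with and without overexpression of the transcription factor IRF-1. The group holds 9 of the 24358 genes in the count table and was set by gene name, with earlier results of these data known. It covers the cellular retinoic acid binding proteins CRABP1 and CRABP2, the retinoic acid receptors RARA, RARB and RARG, the retinoid X receptor RXRA, the clearing enzyme CYP26A1, and the synthesizing enzymes ALDH1A2 and ALDH1A3. All 9 were found under their symbols, and 8 of them had enough counts to be tested.

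Retinoic acid is made from vitamin A inside the cell, where retinaldehyde dehydrogenases carry out the final oxidation. CRABP proteins hold it in the cytoplasm, and CRABP2 hands it to nuclear receptors, which bind DNA as pairs of one RAR and one RXR and switch genes on when the ligand arrives. CYP26 enzymes break it down, and the pathway is known in early embryos and pluripotent cell cultures for driving differentiation and patterning.

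RNA-seq was performed on 4 libraries of DOX-hLIF-2i piPSCs, 2 numbered 1 and 3 in their titles (IRF-1 overexpressing) and 2 numbered 6 and 8 (control). The title numbers serve as replicate names here. The cells of both groups came from porcine embryonic fibroblasts with an OCT4-tdTomato reporter, reprogrammed by doxycycline-inducible lentiviral OSKM (FUW-OSKM with M2rtTA), and the study's methods keep both in doxycycline, LIF and 2 inhibitors (2i, CHIR99021 and PD0325901). The growth label of all 4 libraries instead names an LCDMV culture system, and which medium these libraries came from was not settled. The study reports that DOX-hLIF-2i piPSCs stopped proliferating once doxycycline, which induces the exogenous OSKM, was taken away. Its methods plate the cells on feeder cells while the lines were derived, and do not mention removing feeder cells before RNA extraction. The overexpressing cells received PB-CAG-IRF1-Flag, in which the ubiquitous CAG promoter drives Flag-tagged IRF-1 from a piggyBac vector, together with the transposase, and control cells got PB-CAG-Flag, for which the methods do not mention the transposase either way. Puromycin selection followed in both groups. Nothing in the sources used here says that either is a single clone or which of the 3 derived lines was used. The genotype label names IRF-1 overexpression for all 4 libraries, so the split into groups follows the study's own naming of the libraries. The labels do not say that replicates were separate cultures, and the p-values below then measure only the spread between these libraries, which may be technical.

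Library totals ranged from 15925429 to 24923319 counts, so that 1 count was worth 0.0401 to 0.0628 CPM (read counts scaled to a common library size). IRF1 itself (ENSSSCG00000014277) had 8206 and 5485 counts with IRF-1 overexpressed and 55 and 56 in the controls, a log2 fold change of 6.46 ± 0.21 (SE, adjusted p = 3.65e-05 by the edgeR quasi-likelihood test after Benjamini-Hochberg correction). IRF1 counts therefore separated the libraries in the same way. Among the pluripotency markers DNMT3B and EPCAM were counted in both groups and not called, and LIN28A, CDH1 and ESRRB were counted in both and called lower in the overexpressing cells (ESRRB with 31 and 37 counts against 502 and 402). NANOG had 5 to 11 counts in each library, and DPPA2 had 0 in both overexpressing libraries and 4 in each control. POU5F1 and SOX2 were not matched to a symbol here and give no value.

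Most of the retinoid genes stood lower in the IRF-1 overexpressing cells. Calls required an adjusted p below 0.05 together with a change of no less than 1 on the log2 scale, up or down. By this rule 6 of the 8 tested members were lower (CRABP1, CRABP2, RARA, RARG, RXRA and CYP26A1) and 0 were higher, against 10.6% of the 13250 tested genes called lower and 8.61% called higher. DESeq2 and limma-voom called 6 lower and 0 higher as well, and no member was higher at an unadjusted p under 0.05 (0 of 8 by edgeR). RARB and ALDH1A3 were tested and not called, and ALDH1A2 was too low to test. Members were chosen with earlier results of these data known, so these counts are a description. The median log2 fold change over the 8 tested members was -2.08, beside -0.00162 over all tested genes. In 7 of the 9 members both overexpressing libraries lay below both controls, which was the case for 33.8% of all tested genes. In bulk RNA, fewer cells of a type and less RNA per cell cannot be told apart.

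**Figure D1:**
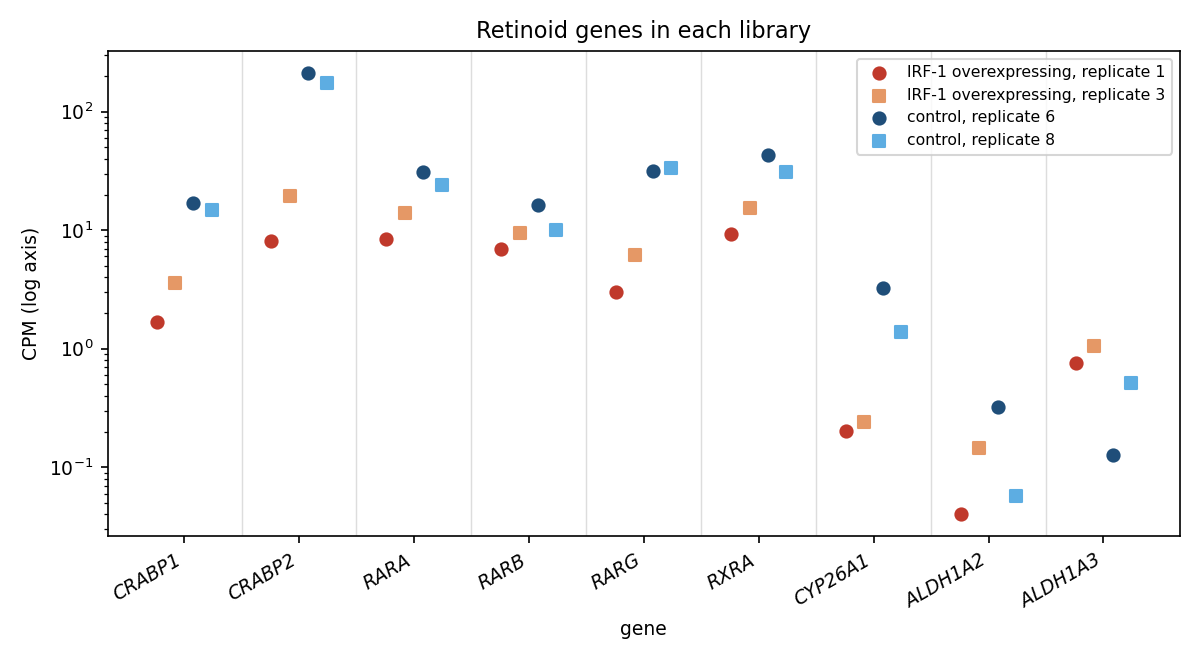
CPM (read counts scaled by library size and TMM factor, log axis) of the 9 retinoid genes in each of the 4 libraries, 1 point per library. CRABP2 lies between 173 and 213 CPM in the controls and at 8.17 and 19.6 CPM in the IRF-1 overexpressing libraries, and the points of RARB and ALDH1A2 lie closest together or overlap between groups.

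CRABP2, the protein that delivers retinoic acid to RAR, was the most abundant member and had the largest fold change. The gene (ENSSSCG00000006472) lies on the plus strand at chr4:93388092-93394155 of Sus scrofa 11.1, with 984 exon bases. It had 203 and 407 counts in overexpressing replicates 1 and 3, and 3324 and 3035 counts in control replicates 6 and 8. These correspond to 8.17 and 19.6 CPM against 213 and 173 CPM. The lower control library was still 8.87 times the higher overexpressing library, so the groups did not overlap. The mean was 13.9 ± 8.05 CPM in the overexpressing cells and 193 ± 27.7 CPM in the controls (SD, n = 2 each). The log2 fold change was -3.81 ± 0.38 (SE), with an adjusted p of 0.000644 by the edgeR quasi-likelihood test after Benjamini-Hochberg correction, a 14.0-fold difference. Left-out libraries moved it between -4.56 (without overexpressing replicate 3) and -3.29 (without overexpressing replicate 1), and CRABP2 was called each time. Per exon length, CRABP2 stood above 98.3% of the tested genes in the controls (196 ± 28.2 FPKM, SD, n = 2) and above 69.8% in the overexpressing cells (14.1 ± 8.18 FPKM, SD, n = 2).

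CRABP1, the paralog that binds retinoic acid in the cytoplasm and is linked to its storage and breakdown, fell as well. The gene (ENSSSCG00000021873) is on the minus strand at chr7:47601991-47609624 and has 2152 exon bases. Counts were 42 and 75 with IRF-1 overexpressed and 263 and 259 in the controls, or 1.69 and 3.60 CPM against 16.8 and 14.8 CPM. Both controls were above both overexpressing libraries, with means of 15.8 ± 1.43 and 2.65 ± 1.35 CPM (SD, n = 2 each). For CRABP1 the log2 fold change was -2.59 ± 0.38 (SE, Benjamini-Hochberg adjusted p = 0.00242, edgeR quasi-likelihood test). Leaving out overexpressing replicate 3 gave -3.22 and leaving out replicate 1 gave -2.12, and CRABP1 was called both times. The library sum of the CRABP pair per length was 9.08 and 21.5 FPKM in the overexpressing cells and 224 and 183 FPKM in the controls, a 13.3-fold difference of means. Within that sum CRABP1 took 8.21 ± 0.616% in the overexpressing cells and 3.62 ± 0.187% in the controls (SD, n = 2 each). CRABP2 thus supplied over 91% of the binding protein transcripts per length in each library. The CRABP1 shares did not overlap, but an exact two-sided permutation test of 2 against 2 libraries cannot go below p = 0.333, and this smallest value is what it gave.

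Of the 3 RAR isotypes, which are separate genes encoding ligand-activated receptors, RARG and RARA were called lower and RARB was not. No test compared the isotypes with each other. RARG, an isotype abundant in early embryos and stem cells, had the largest estimated change of the 3. It is ENSSSCG00000000258, on the minus strand at chr5:18436268-18458624, with 6569 exon bases. RARG had 75 and 128 counts with IRF-1 overexpressed and 496 and 587 in the controls, or 3.02 and 6.15 CPM against 31.7 and 33.5 CPM. The controls were close to each other, and far above both overexpressing libraries. The means were 4.58 ± 2.22 and 32.6 ± 1.28 CPM (SD, n = 2 each), giving a log2 fold change of -2.84 ± 0.33 (SE, Benjamini-Hochberg adjusted p = 0.00102, edgeR quasi-likelihood test). Leaving out overexpressing replicate 3 gave -3.43, leaving out replicate 1 gave -2.39, and RARG was called both times.

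RARA, the broadly expressed isotype, was also lower, with a smaller estimated change. It is ENSSSCG00000017475, on the minus strand at chr12:22045270-22085757, with 5734 exon bases. Its counts were 210 and 288 with IRF-1 overexpressed and 483 and 421 in the controls, or 8.45 and 13.8 CPM against 30.9 and 24.1 CPM. The groups did not overlap, and the means were 11.14 ± 3.81 and 27.5 ± 4.84 CPM (SD, n = 2 each). For RARA the log2 fold change was -1.30 ± 0.28 (SE, Benjamini-Hochberg adjusted p = 0.0109, edgeR quasi-likelihood test). Without overexpressing replicate 1, the library with the lower RARA level, it was -0.97 (adjusted p = 0.0591 by the same edgeR test) and RARA was no longer called.

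RARB, in many cell types a direct target of retinoic acid itself, did not pass the test. It is ENSSSCG00000011212, on the plus strand at chr13:12336370-12507805, with 5664 exon bases. RARB counts were 174 and 196 with IRF-1 overexpressed and 257 and 175 in the controls, or 1.24 and 1.66 FPKM (per exon length) against 2.90 and 1.77 FPKM. Control replicate 8 was only slightly above overexpressing replicate 3, and most of the distance between the groups lay in control replicate 6. The log2 fold change was -0.69 ± 0.31 (SE, Benjamini-Hochberg adjusted p = 0.141, edgeR quasi-likelihood test). Leaving out control replicate 6 gave -0.29, and leaving out control replicate 8 gave -1.0 (adjusted p = 0.541 and 0.0258 by the same edgeR test), and in the latter its size was just under the minimum for a call.

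The RAR family therefore had another makeup in the 2 groups. The summed level was 3.17 and 5.01 FPKM with IRF-1 overexpressed and 13.1 and 11.07 FPKM in the controls, 2.96-fold lower by the means. RARG made up 14.5 and 18.7% of that sum with IRF-1 overexpressed and 36.8 and 46.1% in the controls. RARB made up 39.0 and 33.2% against 22.1 and 15.95%, and RARA 46.5 and 48.1% against 41.1 and 37.9%. RARA was the largest share in 3 of the 4 libraries, and in control replicate 8 RARG was larger. The shares of all 3 isotypes were without overlap between groups, with an exact two-sided permutation p of 0.333 each, the smallest that 2 against 2 allows. These shares rest on 459 to 1236 counts per library. As a share of raw counts RARG was 16.3% in overexpressing replicate 1 (95% Clopper-Pearson interval 13.1 to 20.05%) and 40.1% in control replicate 6 (37.4 to 42.9%), intervals that cover counting error only.

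RXRA, an obligate partner of the RARs and of several other nuclear receptors, also fell. It is ENSSSCG00000038220, on the plus strand at chr1:273703960-273797613, with 5537 exon bases. Counts were 233 and 323 with IRF-1 overexpressed and 673 and 543 in the controls, or 9.37 and 15.5 CPM against 43.0 and 31.0 CPM. Both controls were above both overexpressing libraries, and the means differed 2.98 times. The means were 12.4 ± 4.35 and 37.0 ± 8.50 CPM (SD, n = 2 each), and the log2 fold change was -1.58 ± 0.28 (SE, Benjamini-Hochberg adjusted p = 0.00559, edgeR quasi-likelihood test).

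The other RXR genes were looked at in this detail after their values had been seen, and RXRG rose. RXRG, the RXR isotype best known from muscle, pituitary and brain, had 5190 and 2081 counts with IRF-1 overexpressed and 7 and 8 in the controls. This corresponds to 209 and 99.98 CPM against 0.448 and 0.457 CPM. The log2 fold change of RXRG was 8.39 ± 0.49 (SE, Benjamini-Hochberg adjusted p = 0.000145, edgeR quasi-likelihood test), and it lay between 7.78 (without overexpressing replicate 1) and 8.83 when any single library was left out. Per length RXRG stood above 1.63% of the tested genes in the controls and above 78.3% in the overexpressing cells. RXRB, the ubiquitous isotype, had 700 and 506 counts against 290 and 272, a log2 fold change of 0.62 that was under the minimum for a call (adjusted p = 0.0478, same edgeR test). RXRB shares 754 exon bases with SLC39A7 on the opposite strand, and without a stated strand setting their reads cannot be told apart.

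The summed RXR level was thus higher in the overexpressing cells, at 36.5 and 22.2 FPKM against 12.6 and 9.62 FPKM, while the RAR sum was lower. RXRA went from 60.1 ± 2.60% of the RXR sum in the controls to 8.63 ± 5.64% in the overexpressing cells (SD, n = 2 each). RXRG went from 0.550 ± 0.111% to 67.6 ± 11.4%, and RXRB from 39.4 ± 2.49% to 23.7 ± 5.80% (SD, n = 2 each). None of these shares overlapped between groups, and each exact two-sided permutation p was 0.333. The main RXR transcript by length was therefore RXRA in both controls and RXRG in both overexpressing libraries.

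FABP5, a fatty acid binding protein that can also carry retinoic acid and hand it to PPARD, was set beside CRABP2 after its values had been seen. It had 3806 and 2803 counts with IRF-1 overexpressed and 658 and 817 in the controls, or 153 and 135 CPM against 42.1 and 46.7 CPM. For FABP5 the log2 fold change was 1.70 ± 0.15 (SE, Benjamini-Hochberg adjusted p = 0.00045, edgeR quasi-likelihood test). Of the summed FPKM of CRABP2 and FABP5, CRABP2 made up 89.5 ± 2.03% in the controls and 15.99 ± 9.06% in the overexpressing cells (SD, n = 2 each, exact two-sided permutation p = 0.333). CRABP2 was the larger of the pair in both controls and FABP5 in both overexpressing libraries. PPARD had 419 and 451 counts with IRF-1 overexpressed and 373 and 491 in the controls. Its log2 fold change was -0.43 and it was not called (Benjamini-Hochberg adjusted p = 0.158, edgeR quasi-likelihood test).

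**Figure D2:**
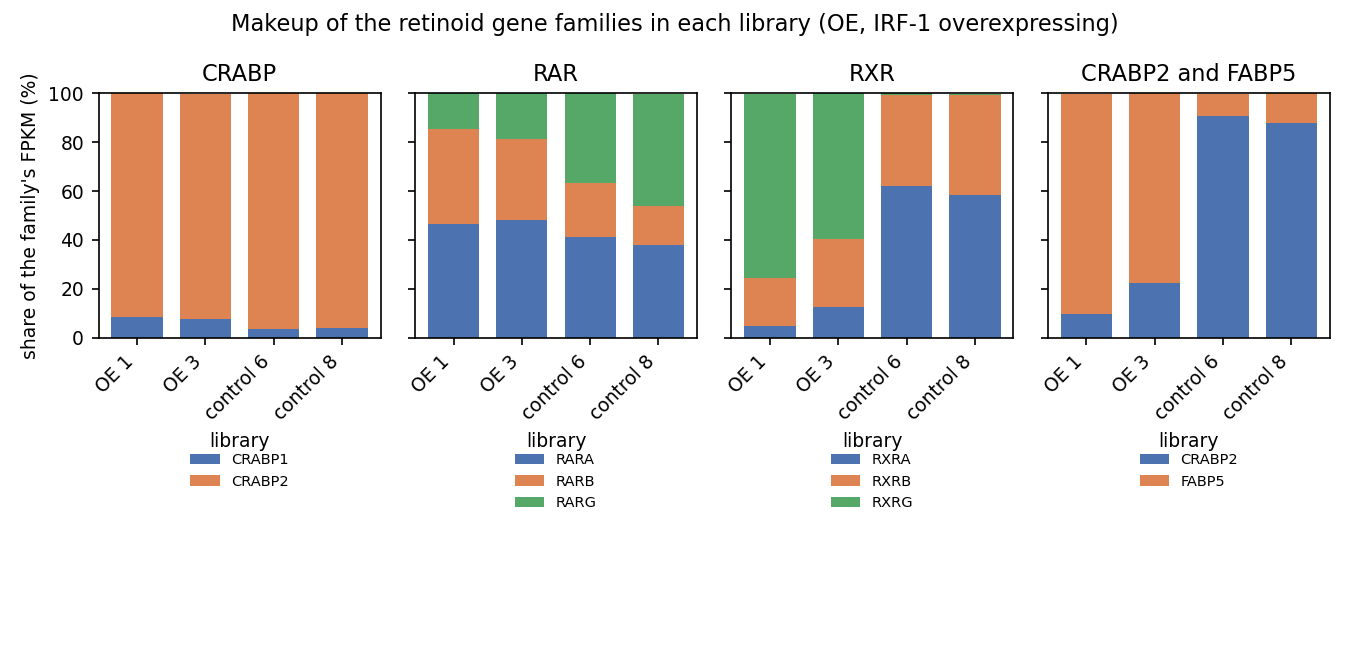
Share of the summed FPKM (level per exon length and library size, computed from the counts) taken by each gene of the CRABP, RAR and RXR families and of the pair CRABP2 and FABP5, 1 bar per library. RARG falls from 36.8 and 46.1% of the RAR sum in the controls to 14.5 and 18.7%, and RXRG is under 1% of the RXR sum in the controls and over 59% in the overexpressing libraries.

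CYP26A1, the hydroxylase that breaks down retinoic acid and is itself a sensitive target gene of the pathway, was low in all libraries and lower in the overexpressing ones. It is ENSSSCG00000010475, on the plus strand at chr14:104563195-104567722, with 2774 exon bases. Both overexpressing libraries held 5 counts of it, and the controls 51 and 24, or 0.201 and 0.24 CPM against 3.26 and 1.37 CPM. The groups did not overlap, although control replicate 6 was 2.38 times control replicate 8. The log2 fold change of CYP26A1 was -3.36 ± 0.64 (SE, Benjamini-Hochberg adjusted p = 0.00721, edgeR quasi-likelihood test). Without overexpressing replicate 1 it was -3.21, with an adjusted p of 0.0507 by the same edgeR test, and CYP26A1 was then not called. Without control replicate 6, the library with the highest CYP26A1 level, it was -2.61 and called.

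The synthesizing enzymes were close to the detection limit. ALDH1A3 (ENSSSCG00000004822, plus strand, chr1:139450945-139492015, 4531 exon bases), 1 of the retinaldehyde dehydrogenases, was the single member with both overexpressing libraries above both controls. It had 19 and 22 counts against 2 and 9, or 0.764 and 1.06 CPM against 0.128 and 0.514 CPM. For ALDH1A3 the log2 fold change was 1.45 ± 0.68 (SE, Benjamini-Hochberg adjusted p = 0.153, edgeR quasi-likelihood test), and it ranged from 0.81 to 2.78 as single libraries were left out. Groups without overlap in this direction were seen for 34.8% of all tested genes, the share against which this single member has to be read.

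ALDH1A2, the main retinaldehyde dehydrogenase of the early embryo, had 1 and 3 counts with IRF-1 overexpressed and 5 and 1 in the controls. It is ENSSSCG00000025578, on the plus strand at chr1:113825321-114037046, with 4131 exon bases. The groups overlapped, and the overexpressing libraries were at or under the floor of 3 counts. Summed over libraries and scaled for depth, the ratio of overexpressing to control was 0.484 (95% interval 0.100 to 2.04, counting error only). No difference was detected, and both lower and higher levels fall within this interval. ALDH1A1, the remaining enzyme of this class, had 0 or 1 count in each library.

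**Figure D3:**
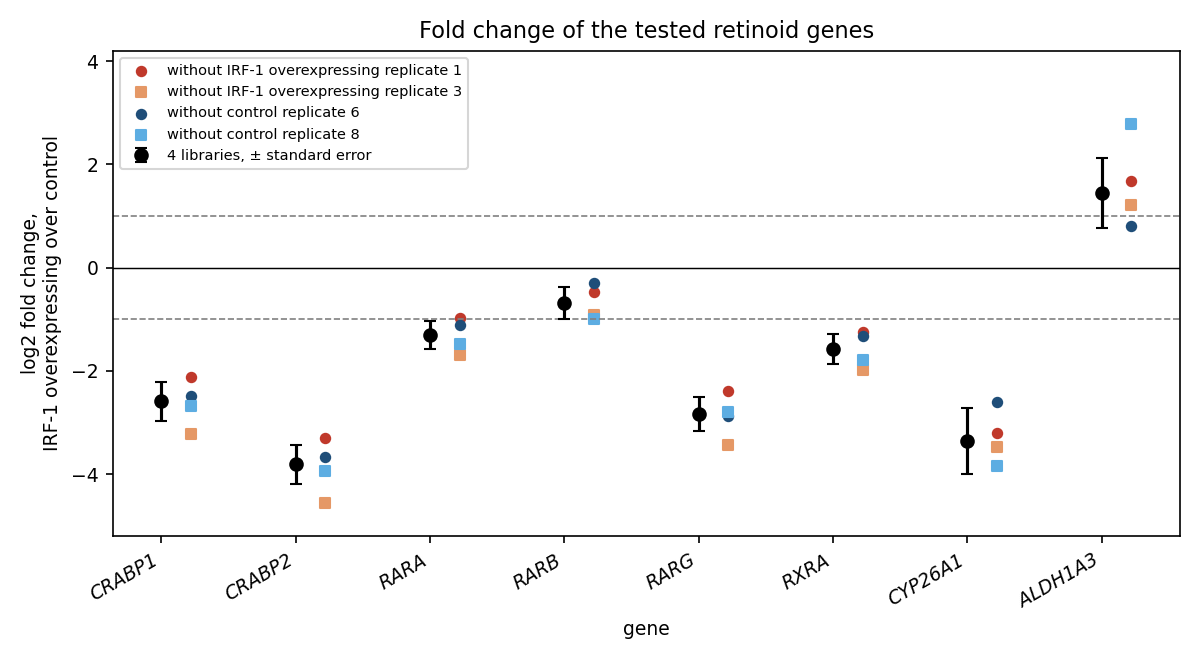
Log2 fold change (IRF-1 overexpressing over control) of the 8 tested retinoid genes from edgeR, with black points for the fit on 4 libraries, bars for ± 1 standard error, and coloured points for fits without 1 library. Dashed lines mark the minimum size for a call, and every estimate of CRABP1, CRABP2, RARG, RXRA and CYP26A1 lies below -1, while RARA reaches -0.97 without overexpressing replicate 1.

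In each of the 9 members overexpressing replicate 3 was above replicate 1, that is, nearer to the controls in the 6 members called lower. CYP26A1 had 5 counts in both libraries, so its order comes from the library scaling alone. The order of ALDH1A2 rests on 1 and 3 counts. Over all tested genes replicate 3 was above replicate 1 in 50.4%, and among the 1410 genes called lower in 76.3%. CRABP2 was 2.39 times as high in replicate 3 as in replicate 1 and CRABP1 2.13 times, whereas IRF1 was higher in replicate 1 (330 CPM) than in replicate 3 (264 CPM). With 2 libraries this order cannot be set against any spread. The number of members called lower was 4 without overexpressing replicate 1, when 6.47% of all tested genes were called lower, and 6 when any other library was left out.

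Levels between genes can be compared only per length. In the controls the order by mean FPKM was CRABP2 (196), CRABP1 (7.35), RXRA (6.69), RARG (4.97), RARA (4.79), RARB (2.33), CYP26A1 (0.835), ALDH1A3 (0.0709) and ALDH1A2 (0.0456). CRABP1 and RXRA did not differ beyond the range of their libraries, nor did RARG and RARA, nor ALDH1A3 and ALDH1A2. In the overexpressing cells CRABP2 was still first at 14.1 FPKM. RXRA (2.25), RARA (1.94), RARB (1.45), CRABP1 (1.23) and RARG (0.698) followed, each overlapping with the next, although RARG lay clear of RARB. Then came ALDH1A3 (0.201), CYP26A1 (0.0796) and ALDH1A2 (0.0223), each apart from its neighbour. RARG thus went from level with RARA at the top of the RARs to the lowest RAR by mean FPKM.

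The rest of the pathway was read from a list of 67 other genes, drawn up with earlier results of these data known. Of them, 62 were in the table and 37 could be tested. Of these, 6 were higher (16.2%) and 2 lower (5.41%), and their median log2 fold change was 0.07. Over all genes tested, 8.61% were higher and 10.6% lower.

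Of 27 genes for the supply and storage of retinol and retinal, 10 were tested, with 1 lower and 0 higher. That is 10% lower, beside 10.6% lower and 8.61% higher over all tested genes. The median log2 fold change of the 10 was 0.18. At an unadjusted edgeR p under 0.05, 2 were higher and 3 lower. DHRS4, a retinal reductase, had 123 and 154 counts with IRF-1 overexpressed and 234 and 256 in the controls. Its log2 fold change was -1.26 ± 0.28 (SE, Benjamini-Hochberg adjusted p = 0.0123, edgeR quasi-likelihood test), and it was -0.99 and not called without overexpressing replicate 1. DHRS4 shares 207 exon bases with CARMIL3. The membrane receptor for retinol uptake, STRA6, had 7 counts or fewer in each library.

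Of the other clearing enzymes, CYP26B1 had 5 to 16 counts per library and CYP26C1 had 0 in all 4. CYP1B1, the most abundant of the 3 by mean FPKM over the 4 libraries but below CYP26B1 in the controls, had a log2 fold change of 0.91 that did not pass the test (Benjamini-Hochberg adjusted p = 0.315, edgeR quasi-likelihood test). It ranged from 0.36 without overexpressing replicate 1 to 1.74 without control replicate 8, and CYP1B1 was called in neither case. All 10 co-regulators on the list were tested and 0 were called in either direction, with a median log2 fold change of -0.01. DESeq2 and limma-voom called 0 as well, while the reported edgeR rule called 19.3% of all tested genes in either direction. At an unadjusted p under 0.05 edgeR had 1 co-regulator higher and 2 lower. The lower ones were the coactivators NCOA3, at -0.80, and NCOA2, at -0.48, which passed the adjusted p (0.00474 and 0.0498 by the same edgeR test) and missed the minimum fold change. They are named after their values were seen. The most abundant co-regulator by mean FPKM over the 4 libraries was NCOR1, a corepressor held by RAR without ligand, at -0.03 (adjusted p = 0.884, same edgeR test).

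Among partners and related nuclear receptors, 3 of 6 tested genes were higher, beside 8.61% of all tested genes. This list too was made with earlier results of these data known, so the shares are description only. Beside RXRG and FABP5 described above, the third was RORB, an orphan receptor known from the nervous system, with 380 and 134 counts against 29 and 37. Its log2 fold change was 2.45 ± 0.46 (SE, Benjamini-Hochberg adjusted p = 0.00676, edgeR quasi-likelihood test). It was 1.71 without overexpressing replicate 1 (adjusted p = 0.0428, same edgeR test).

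Of 9 tested textbook target genes of retinoic acid, 3 were higher and 1 lower, beside 8.61% and 10.6% of all tested genes, and their median log2 fold change was -0.40. The tally was not stable, with 2 higher and 2 lower by limma-voom. At an unadjusted edgeR p under 0.05, 4 were higher and 4 lower. TGM2, tissue transglutaminase, had 72 and 107 counts with IRF-1 overexpressed and 8 and 4 in the controls, a log2 fold change of 3.43 ± 0.57 (SE, Benjamini-Hochberg adjusted p = 0.00415, edgeR quasi-likelihood test). RARRES1, a gene named for its response to retinoids, had 1150 and 662 counts against 185 and 183, a log2 fold change of 1.81 ± 0.23 (SE, adjusted p = 0.00147, same edgeR test). Both genes had their groups well apart, and TGM2 ranged from 2.96 (without control replicate 8) to 4.09 (without control replicate 6).

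The COUP transcription factors, nuclear receptors that also respond to retinoic acid, went opposite ways. NR2F1 had 292 and 502 counts against 113 and 113, and changed by 1.39 on the log2 scale ± 0.35 (SE, Benjamini-Hochberg adjusted p = 0.0226, edgeR quasi-likelihood test). It was 0.79 and not called without overexpressing replicate 3. Without a stated strand setting, antisense reads in the NR2F1 counts cannot be told apart. NR2F2 had 1206 and 1187 counts against 2410 and 1737, and changed by -1.26 on the log2 scale ± 0.22 (SE, adjusted p = 0.00499, same edgeR test), and it was -0.91 and not called without control replicate 6. TBX1, first among the tested targets by mean FPKM over the 4 libraries but first in neither group alone, was at -0.56, under the minimum for a call. HOXB1, HOXB2 and STRA8 had 0 counts in all 4 libraries, where 3 counts correspond to 0.12 to 0.188 CPM.

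**Figure D4:**
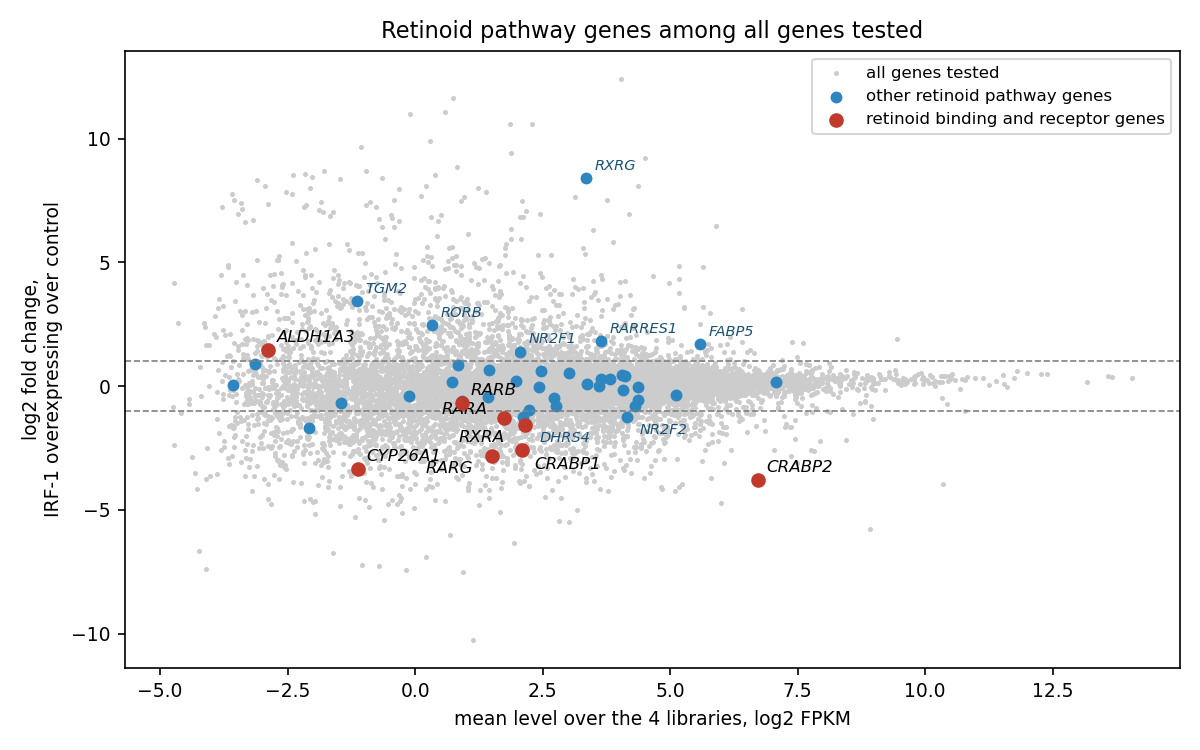
Log2 fold change (IRF-1 overexpressing over control) against the mean level over the 4 libraries (log2 FPKM) for all 13250 tested genes (grey), 37 other retinoid pathway genes (blue, called genes named) and 8 retinoid binding and receptor genes (red). Of the red points 7 lie below 0, CRABP2 at the highest level with -3.81, while RXRG is the highest blue point at 8.39.

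The pattern of CRABP2 over the 4 libraries was most like those of RBM20, PTPRD and LYN among 9128 genes that have a symbol and average 5 CPM or more. Likeness was the Euclidean distance of log2(CPM + 0.5) centred on each gene's mean, and it was 0.276, 0.282 and 0.331 log2 units over 4 libraries. RBM20, a splicing regulator, had 36 and 63 counts with IRF-1 overexpressed and 723 and 614 in the controls. PTPRD, a receptor tyrosine phosphatase, had 70 and 130 counts against 1126 and 1293. LYN, a Src family kinase, had 9 and 20 counts against 285 and 236. All 3 had replicate 3 above replicate 1 in the overexpressing group, as CRABP2 did. They were chosen on these 4 libraries, so this shared order follows from the choice. In the controls PTPRD had replicate 8 above replicate 6, unlike CRABP2.

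The nearest tested and named gene on each side of the members was also read, a comparison made after the members' values had been seen. Of 17 such neighbours 4 were lower and 0 higher by edgeR, DESeq2 and limma-voom (1 higher at an unadjusted edgeR p under 0.05), beside 10.6% lower and 8.61% higher over all tested genes, and their median log2 fold change was -0.21. NES, which encodes the intermediate filament nestin and starts 18402 bases from CRABP2, fell by 2.06 on the log2 scale (Benjamini-Hochberg adjusted p = 0.00137, edgeR quasi-likelihood test). MYOF, a membrane repair protein 200061 bases from CYP26A1, fell by 3.15 (adjusted p = 0.000144, same edgeR test). LRRK1, 2106 bases from ALDH1A3, fell by 1.51 and so lay on the other side of 0 from ALDH1A3. THRB, 976346 bases from RARB, fell by 1.15. The neighbours of CRABP1, RARA, RARG and RXRA were not called, and TOP2B, 258 bases from RARB, was at 0.27.

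Markers of other cell types also differed between these libraries, with counts of calls to be read against 8.61% higher and 10.6% lower over all tested genes. Of 10 trophoblast markers 6 were tested and 4 were lower (KRT8, KRT18, TFAP2C and TEAD4), and their summed level was 288 and 1130 CPM with IRF-1 overexpressed and 15675 and 9614 CPM in the controls. KRT8, an epithelial keratin not limited to trophoblast, supplied most of that sum. On the same list CDX2 and HAND1 had 0 counts in all libraries and KRT7 was at the floor. GATA3 (110 to 273 counts) and GATA2 (17 to 47 counts) were counted in every library and not called. Of 13 neural markers found, 12 were tested, with 6 higher and 1 lower, and the summed level was 837 and 429 CPM against 321 and 300 CPM. Of 13 markers of fibroblasts and feeder cells 7 were tested, with 2 higher and 3 lower. Their sums were 324 and 252 CPM against 348 and 288 CPM. The lower ones were PDGFRB (-5.49 on the log2 scale), DCN (-3.63) and COL1A1 (-1.97), and the higher ones PRRX1 (1.62) and COL1A2 (1.08). Of 9 endoderm markers 3 were tested with 1 lower, with sums of 65.7 and 84.9 CPM against 92.1 and 80.7 CPM. FOXA2, AFP, CER1 and TTR had 0 counts in all libraries, while GATA6 had 708 to 1201 and FOXA1 had 201 to 624. Neither of these was called, and FOXA1, at 0.75 on the log2 scale, missed the minimum fold change (Benjamini-Hochberg adjusted p = 0.045, edgeR quasi-likelihood test). Of 9 pluripotency markers 7 were tested and 3 were lower (LIN28A, ESRRB and CDH1), with sums of 1467 and 1500 CPM against 1729 and 1902 CPM. The part of these differences in the retinoid results was not tested.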

How the data were processed

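The RNA-seq libraries (2 IRF-1 overexpressing, 2 control) were used, and the ChIP libraries were not analysed here. The authors deposited whole-number read counts per gene, not normalized, with exon coordinates and exon length. Their methods and the submitters' processing notes name trim_galore, HISAT2 2.0.4, Sus scrofa 11.1 and featureCounts 1.6.4. The annotation release, strand setting and treatment of multi-mapped reads are not given in the sources used here. No member shares exon bases with another gene.

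Symbols came from a table of pig gene names (14692 of 24358 identifiers). Counts were tested in R 4.3.3 with edgeR 4.0.16 (TMM, filterByExpr, quasi-likelihood test, Benjamini-Hochberg over 13250 genes), although the study used DESeq2, which is an alternative here. Calls need an adjusted p below 0.05 together with a change of no less than 1 on the log2 scale. FPKM was computed from counts, exon length and TMM-scaled library size. The floor is 3 counts in every library of a group. Replicates were further apart than counting noise (chi-square over degrees of freedom 17.9 and 31.3). On simulated counts for 13250 genes, 191 of 200 genes given a log2 change of 2 were called in the right direction. Of the others, 7 were called too. The simulation gave every gene the same spread between replicates (common dispersion 0.0313). These rates therefore do not carry over to genes whose replicates vary more.

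Named are all members, IRF1, each called gene of the pathway list and the most abundant gene per role, 3 genes most like the most abundant and the most changed member (CRABP2 in both cases), and marker lists. Some genes this rule selects are not reported here. Other pathway genes, the RXR family, the pair CRABP2 and FABP5 and the neighbours were chosen after values were seen. Members and lists were chosen with earlier results of these data known. Promoter sequences were not used here. Alternatives were other scalings and filters, DESeq2 1.42.0, limma-voom (limma 3.58.1), no minimum fold change, counts without 37 mitochondrial and 10 top genes, each library left out, and, added after seeing the data, family shares not divided by length. Figures and tables used Python 3.11.15, pandas 2.3.3, numpy 2.4.6, scipy 1.17.1 and matplotlib 3.10.9.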

Additional observations from a re-analysis of the deposited data

How the results depend on the processing

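Under 3 other scalings, 2 other filters, DESeq2, limma-voom and the counts without mitochondrial and top genes, 6 members were called lower and 0 higher, as in the reported fit. ALDH1A3 did not pass the filter of 1 CPM in 2 libraries. With 1 library left out, the lone sample of a group is assumed to vary like the other group. The log2 fold changes then ranged from -1.69 to -0.97 for RARA and from -3.85 to -2.61 for CYP26A1, neither called without overexpressing replicate 1. The number of other pathway genes called lower, 2 as reported, ranged from 1 to 3 when a library was left out and was 7 with no minimum fold change, a rule that calls 15.5% of all genes lower. The number called higher, 6 as reported, was 5 by limma-voom, 8 with no minimum fold change (13.9% of all genes) and 9 without control replicate 8. With a library left out, NCOR1 ranged from -0.09 to 0.04, and turned to 0.04 without overexpressing replicate 1 and to 0.01 without control replicate 8. NR2F1 was 1.27 and not called by limma-voom, which called 3 of the other pathway genes lower. Not divided by length, a choice made after seeing the data, CRABP1 took 16.4% of the CRABP counts in the overexpressing cells and 7.60% in the controls. RXRB then took 14.4% and 31.5% of the RXR counts, RXRG 78.1% and 0.847%, and CRABP2 took 8.87% and 81.1% of its pair with FABP5, with the direction of each difference as reported. The cause of the other changes was not tested. No paired analysis was made, because the labels do not say whether libraries of the groups were paired. With 2 libraries per group and fewer than 60 counts, CYP26A1, ALDH1A2 and ALDH1A3 are the least precise members.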
